A study of Rattus norvegicus with 8 samples.

Results

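Expression of 10 genes of intermediate filaments, desmosomes and the nuclear lamina was examined in glomeruli of Dahl rats and SHR rats. They are Ppl, Vim, the keratin genes Krt7, Krt8, Krt18 and Krt19, the desmosome genes Dsp and Jup, and the lamin genes Lmna and Lmnb1. These 10 are among 14217 genes named on the array, and are measured by 14 of 31042 probe sets (sets of short oligonucleotides that each target 1 transcript). All probe sets annotated to these symbols were taken, and a gene with several was represented by the brightest on average over the 8 arrays. The genes were chosen with their strain differences known, and Ppl belongs to the cytoskeletal genes that the study itself selected on these arrays. The differences between Dahl and SHR rats in these genes are therefore given as a description, without a test. The comparisons of age within a strain were not part of the choice and were tested. The change in strain difference between the ages was tested too. It is formed from strain differences that were known, so its p values are not independent of the choice.

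The study compares glomeruli of the Dahl salt-sensitive rat, which develops proteinuria spontaneously, with those of the spontaneously hypertensive rat (SHR), which does not. There were 4 groups, Dahl rats and SHR rats at 4 and at 6 weeks of age, with 2 arrays per group. The labels call these biological replicates, and each array is read here as 1 rat. The paper describes its animals as male and on a low-salt diet, with glomeruli isolated from the left kidney by magnetic retraction. It does not state this separately for the rats of the arrays. Both strains become hypertensive with age and differ throughout the genome, so SHR rats are a non-proteinuric comparison strain and not a healthy control of the same background. The values are log2 intensities as deposited, and 1 unit is a doubling of signal. The strain difference was estimated with limma as Dahl minus SHR, with n = 4 rats per strain over both ages and n = 2 per group, with Benjamini-Hochberg adjustment of p values across all probe sets.

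Correlations between the 2 arrays of a group were 0.989 to 0.997, and those across groups 0.950 to 0.994. The glomerular origin of the RNA was checked with podocyte markers, and the nephrin gene Nphs1 lay between 11.84 and 12.65 on every array. Tubular RNA was present too, with the proximal tubule gene Slc34a1 between 12.15 and 13.79 and Umod, a gene of the thick ascending limb, between 11.08 and 12.57. A marker score was computed on each array as the median, over a list of genes, of the deviation from the average of that gene. The score of 14 proximal tubule markers lay at -1.98 in Dahl 6 weeks replicate 2 and between -0.26 and 1.02 in the other arrays, so that this array stands apart, and values without it are given below. Genome-wide, 34.7% of the probe sets differed between the strains (limma, adjusted p under 0.05).

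Intermediate filaments are rope-like polymers that give cells mechanical strength. Keratins form them in epithelia as obligate pairs of a type I protein (such as keratin 18 or 19) and a type II protein (such as keratin 7 or 8), and vimentin forms them in podocytes, mesangial cells, endothelium and leukocytes. Keratins 7, 8, 18 and 19 are those of simple epithelia, in the kidney mainly of the distal nephron and collecting duct. Desmosomes are junctions that anchor these filaments at the cell border, periplakin is a linker protein that binds filaments including keratin 8 and vimentin, and lamins form the filament layer that lines the nucleus.

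Sequences upstream of Ppl, Vim, Krt8 and Krt18 are shown because the strain contrast described below runs between Ppl and Vim on one side and the keratins on the other. They are the 250 bases before the annotated start in the rat RefSeq assembly GRCr8, which comes from a Brown Norway rat and from neither strain studied. They lie at chr10:10957138-10957387 (Ppl, plus strand), chr17:81577011-81577260 (Vim, plus strand), chr7:135010340-135010589 (Krt8, minus strand) and chr7:135035918-135036167 (Krt18, plus strand). Krt8 and Krt18, which encode a keratin pair, are transcribed away from each other with 1 annotated gene between them. Capitals mark matches on either strand to the TATA box (TATAAA), the promoter motif CCAAT, the GC box (GGGCGG), the AP-1 motif (TGANTCA) and an E-box (CAGGTG).
Ppl: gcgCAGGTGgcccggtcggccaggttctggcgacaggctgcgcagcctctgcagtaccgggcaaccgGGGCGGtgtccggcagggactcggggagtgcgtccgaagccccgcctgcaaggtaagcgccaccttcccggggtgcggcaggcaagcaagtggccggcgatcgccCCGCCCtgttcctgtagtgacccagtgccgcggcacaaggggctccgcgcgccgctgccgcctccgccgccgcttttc
Vim: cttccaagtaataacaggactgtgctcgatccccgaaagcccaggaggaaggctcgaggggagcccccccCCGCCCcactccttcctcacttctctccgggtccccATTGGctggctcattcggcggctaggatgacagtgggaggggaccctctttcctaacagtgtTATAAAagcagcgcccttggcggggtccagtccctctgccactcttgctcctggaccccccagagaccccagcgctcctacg
Krt8: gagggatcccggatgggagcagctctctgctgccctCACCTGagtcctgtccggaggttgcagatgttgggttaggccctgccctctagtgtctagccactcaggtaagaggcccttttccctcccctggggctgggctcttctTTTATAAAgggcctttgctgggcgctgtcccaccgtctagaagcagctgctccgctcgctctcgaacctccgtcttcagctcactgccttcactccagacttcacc
Krt18: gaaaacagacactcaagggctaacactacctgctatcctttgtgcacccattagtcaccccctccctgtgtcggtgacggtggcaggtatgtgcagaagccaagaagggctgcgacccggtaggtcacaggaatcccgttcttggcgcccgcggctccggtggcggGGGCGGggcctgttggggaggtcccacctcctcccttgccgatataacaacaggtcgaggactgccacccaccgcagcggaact
The TATA box was found in Vim, 82 bases before the start, and in Krt8, where matches on both strands overlap at 106 and 104 bases before it. Ppl held GC boxes at 183 and 78 bases and an E-box at 247 bases, and Krt18 held a GC box at 84 bases. Promoters were available for 8 of the 10 genes. Of these 8, 2 held TATAAA, against 12.9% of all 33469 promoters of the same length. The GC box was present in 6 (30.5% of all), the E-box in 4 (15.9%), the CCAAT motif in 2 (34.0%) and the AP-1 motif in 0 (6.34%). A match describes these letters only, in the Brown Norway sequence, and says nothing of binding in these glomeruli.

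Ppl and Vim were both higher in Dahl glomeruli, and all 4 keratins were lower. Among the other members, Dsp was lower and Jup, Lmna and Lmnb1 were higher over both ages. The lowest Dahl rat exceeded the highest SHR rat for 4 of the 10 genes (Ppl, Vim, Jup and Lmna) and the reverse held for 3 (Krt7, Krt18 and Dsp), with overlap for Krt8, Krt19 and Lmnb1. Over all probe sets, 8.15% lay entirely above, 42.1% entirely below and 50.3% did not overlap in either direction. By the threshold of the genome-wide fit, 5 members were higher and 4 lower, against 34.7% of all probe sets, of which 10.6% were higher and 24.2% lower. Since the genes were chosen with this contrast known, nothing is read from these counts. The median difference of the 10 genes was -0.014, and that of all probe sets was -0.053. In RNA of whole glomeruli, fewer cells of a type and less RNA per cell cannot be told apart.

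**Figure D1:**
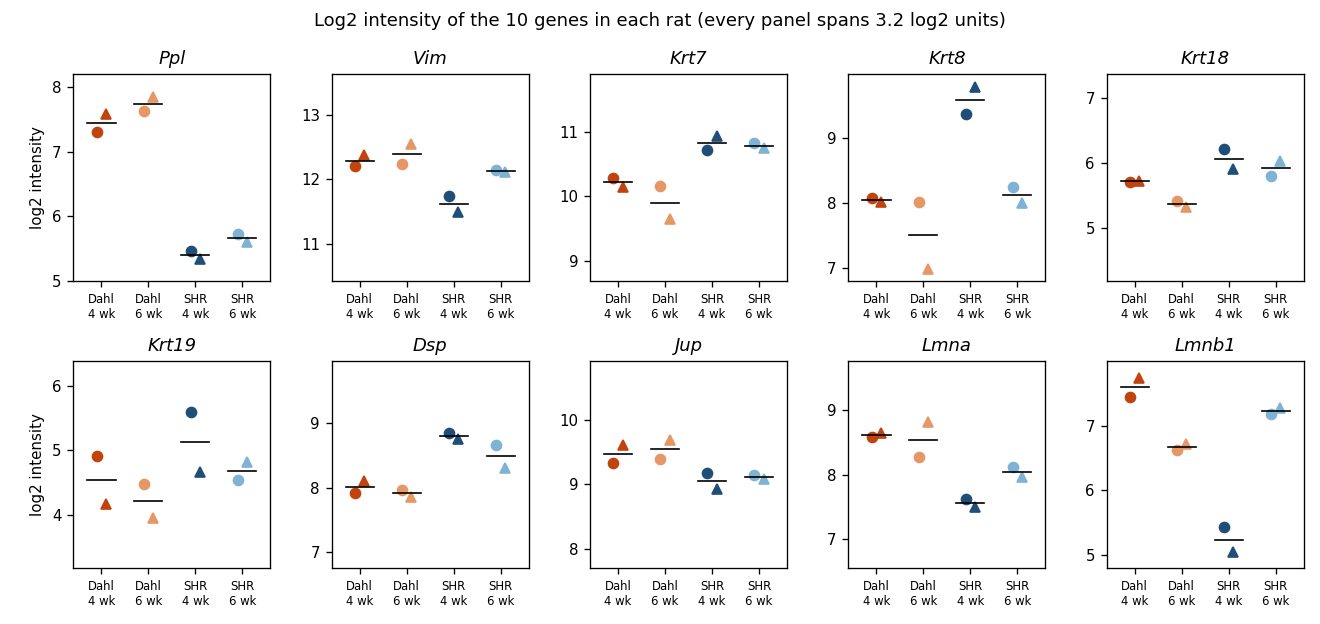
Log2 intensity (vertical axis) of the 10 genes by group, with 1 symbol per rat (replicate 1 as a circle, replicate 2 as a triangle) and a bar at each group mean. All panels have axes of the same length. Ppl spans 7.30 to 7.84 in Dahl rats and 5.34 to 5.73 in SHR rats.

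Ppl, which encodes periplakin, had log2 values of 7.30 and 7.58 in the Dahl rats at 4 weeks, 7.64 and 7.84 at 6 weeks, 5.46 and 5.34 in the SHR rats at 4 weeks and 5.73 and 5.60 at 6 weeks. All 4 Dahl rats lay far above all 4 SHR rats, and within each strain the 6-week rats lay slightly above the 4-week rats. Dahl rats averaged 7.59 ± 0.23 (SD, n = 4), and SHR rats averaged 5.53 ± 0.17 (SD, n = 4). The difference was 2.04 (standard error 0.13) at 4 weeks and 2.08 (standard error 0.13) at 6 weeks, or 4.10-fold and 4.22-fold. The test of the difference between these ages gave 0.043 (standard error 0.18, adjusted p = 0.994). The order of the groups was Dahl 6 weeks, Dahl 4 weeks, SHR 6 weeks and SHR 4 weeks. The age steps within Dahl rats (0.30, adjusted p = 0.602) and within SHR rats (0.26, adjusted p = 0.459) did not pass. Ppl is measured by 1 probe set only.

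Vim, the vimentin gene, had values of 12.21 and 12.37 in the Dahl rats at 4 weeks and 12.23 and 12.54 at 6 weeks. In the SHR rats they were 11.75 and 11.50 at 4 weeks and 12.14 and 12.12 at 6 weeks. The strains did not overlap, but the highest SHR rats came close to the lowest Dahl rats, and the SHR 4 weeks rats were the lowest. The strain difference was 0.66 (standard error 0.14, 1.58-fold) at 4 weeks and 0.26 (standard error 0.14, 1.20-fold) at 6 weeks, where it was 0.11 (standard error 0.13) without Dahl 6 weeks replicate 2. Its change between the ages was -0.40 (standard error 0.19, adjusted p = 0.582). Vim was among the brightest 1% of probe sets (percentile 99.5). In the same arrays, 9 of 12 mesangial and smooth muscle markers passed as higher in Dahl rats and 0 as lower, with scores of 0.26 to 0.41 in the Dahl rats, -0.59 to -0.58 in the SHR rats at 4 weeks and about -0.14 in those at 6 weeks. Of 10 endothelial markers 5 were higher and 0 lower, of 9 podocyte markers 4 and 0, and of 13 leukocyte markers 7 and 4, where 10.6% of all probe sets were higher and 24.2% lower. The SHR 4 weeks rats were also lowest in the podocyte score (-0.16 and -0.47) and in the leukocyte score (-0.64 and -0.69). In the endothelial score they were at -0.12 and -0.43, with the SHR 6 weeks rats at -0.30 and -0.10. The part of these cell types in the values of Vim was not tested.

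Krt8, the type II keratin of simple epithelia, had values of 8.08 and 8.02 in the Dahl rats at 4 weeks, 8.02 and 6.98 at 6 weeks, 9.37 and 9.80 in the SHR rats at 4 weeks and 8.24 and 8.01 at 6 weeks. The SHR 4 weeks rats stood apart as the highest, Dahl 6 weeks replicate 2 as the lowest, and the other 5 arrays lay between 8.01 and 8.24. The difference was -1.53 (standard error 0.37) at 4 weeks, where SHR rats were higher by 2.90-fold, and -0.62 (standard error 0.37) at 6 weeks, with SHR rats higher by 1.54-fold. Without Dahl 6 weeks replicate 2 the 6-week difference was -0.10 (standard error 0.22), so its size rests on that array. The change in this difference, 0.91 with a standard error of 0.52, did not pass (adjusted p = 0.684), nor did it without that array (1.43, adjusted p = 0.164). From 4 to 6 weeks the value changed by -1.46 in SHR rats (limma, standard error 0.37, adjusted p = 0.150). This change passed when only the brighter probe sets were tested (adjusted p = 0.0419). It stayed at -1.46 without either Dahl 6 weeks array, as it is formed from SHR rats only, so those fits altered only its test. Over all alternatives its adjusted p ran from 0.0419 to 0.430.

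Krt18, the type I partner of keratin 8, was at 5.71 and 5.72 in the Dahl rats at 4 weeks and 5.42 and 5.32 at 6 weeks, and at 6.22, 5.91, 5.80 and 6.04 in the SHR rats in the same order of age. All Dahl rats lay below all SHR rats, by a smaller step than for Krt8. The difference was -0.35 at 4 weeks and -0.55 at 6 weeks (standard errors 0.13). Krt8 and Krt18 thus had the same sign at each age.

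Krt7, a type II keratin of ducts, had values of 10.29 and 10.15 in the Dahl rats at 4 weeks and 10.17 and 9.64 at 6 weeks. The SHR rats were at 10.73 and 10.93 at 4 weeks and 10.82 and 10.74 at 6 weeks, close together and entirely above the Dahl rats. The difference was -0.61 (standard error 0.19) at 4 weeks and -0.88 (standard error 0.19) at 6 weeks. Krt19, a type I keratin of ducts, was at 4.90, 4.18, 4.48 and 3.96 in the Dahl rats and at 5.59, 4.66, 4.54 and 4.81 in the SHR rats, with the 4-week rats given first. The strains overlapped, and the mean difference of -0.52 had a standard error of 0.30. Its signal was near the middle of all probe sets (percentile 53.9), the dimmest of the 10 genes.

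Averaged over the 4 keratins, the deviation from the mean of all arrays was -0.042 and -0.27 in the Dahl rats at 4 weeks, -0.27 and -0.81 at 6 weeks, 0.69 and 0.54 in the SHR rats at 4 weeks and 0.061 and 0.11 at 6 weeks. All SHR rats lay above all Dahl rats, and the SHR 4 weeks rats were highest. The score of the proximal tubule markers was 0.76 and 1.02 in the SHR rats at 4 weeks, 0.26 and 0.39 at 6 weeks, 0.18 and -0.11 in the Dahl rats at 4 weeks and -0.26 and -1.98 at 6 weeks. The keratin average and these markers were thus both highest in the SHR 4 weeks rats and lowest in Dahl 6 weeks replicate 2. The same held for the score of distal nephron and collecting duct markers. It was 0.41 and 0.39 in the SHR 4 weeks rats and -0.84 in that Dahl array. Each of the 4 keratins was lowest in that array, but only Krt8 had both SHR 4 weeks rats above every other rat. Of 14 proximal tubule markers 3 passed as lower in Dahl rats and 0 as higher, where 24.2% of all probe sets passed as lower, so this count is near the background. Of 19 genes that mark the distal nephron or collecting duct 8 passed as lower and 0 as higher, with scores of -0.84 to 0.026 in Dahl rats and 0.031 to 0.41 in SHR rats. Of 8 markers of the parietal epithelium 1 was higher and 0 lower, with scores between -0.13 and 0.063 on every array. Without Dahl 6 weeks replicate 2, the strain differences were -0.82 for Krt8, -0.61 for Krt7, -0.43 for Krt18 and -0.39 for Krt19, against 2.00 for Ppl and 0.38 for Vim. The part of tubular RNA in the keratin differences was not tested.

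**Figure D2:**
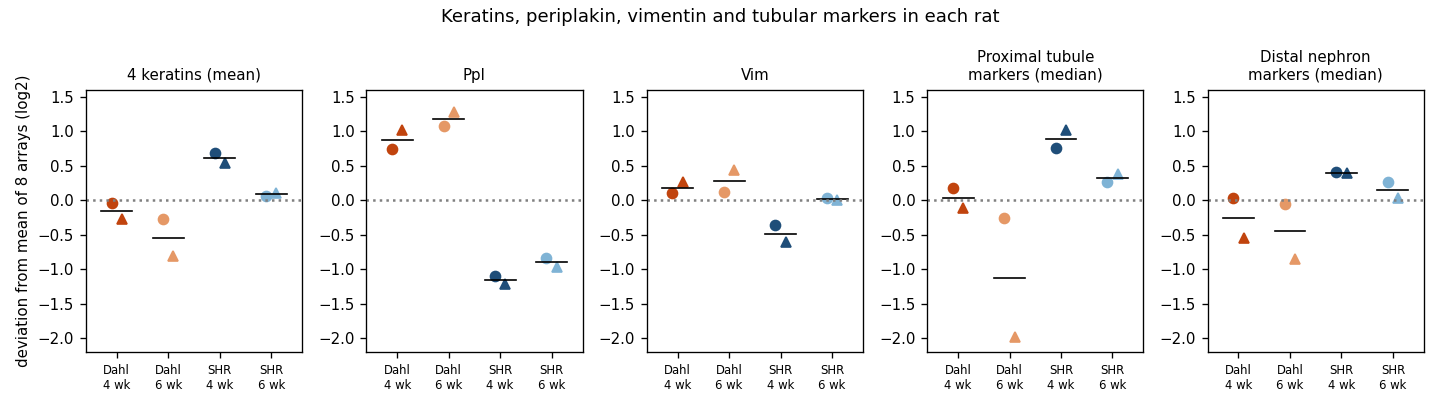
Deviation from the mean of the 8 arrays (vertical axis, log2) for the mean of Krt7, Krt8, Krt18 and Krt19, for Ppl and Vim, and for the median of the proximal tubule and distal nephron markers. Each symbol is 1 rat (replicate 1 as a circle, replicate 2 as a triangle), with a bar at each group mean. The keratin mean and both tubular marker medians are highest in the SHR 4 weeks rats. In Dahl 6 weeks replicate 2 they are lowest, at -0.81 (keratins), -1.98 (proximal tubule) and -0.84 (distal nephron).

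The 2 desmosome genes differed between the strains in opposite directions. Dsp encodes desmoplakin, which ties keratin filaments to the desmosome, and had values of 7.92 and 8.11 in the Dahl rats at 4 weeks, 7.97 and 7.86 at 6 weeks, 8.85 and 8.75 in the SHR rats at 4 weeks and 8.67 and 8.30 at 6 weeks. Every Dahl rat lay below every SHR rat. The difference was -0.79 at 4 weeks and -0.57 at 6 weeks (standard errors 0.14). The second probe set of Dsp lay at 1.52 or less on every array, at percentile 0.467 of signal, and had a difference of -0.018. Jup encodes plakoglobin, which is shared by desmosomes and adherens junctions. It was at 9.33 and 9.61 in the Dahl rats at 4 weeks, 9.39 and 9.69 at 6 weeks, 9.18 and 8.92 in the SHR rats at 4 weeks and 9.14 and 9.09 at 6 weeks. All Dahl rats lay above all SHR rats, with nearly the same difference at both ages, 0.42 and 0.43 (standard errors 0.16), although the 6-week value was 0.28 without Dahl 6 weeks replicate 2.

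Lmna, which encodes the A-type lamins, had values of 8.58 and 8.65 in the Dahl rats at 4 weeks, 8.27 and 8.81 at 6 weeks, 7.62 and 7.50 in the SHR rats at 4 weeks and 8.12 and 7.96 at 6 weeks. The strains did not overlap, and the gap was wider at 4 weeks (1.05, standard error 0.19) than at 6 weeks (0.50, standard error 0.19), although the change of -0.55 did not pass (adjusted p = 0.581). Without Dahl 6 weeks replicate 2 the 6-week difference was 0.23 (standard error 0.098) and the change -0.82 (adjusted p = 0.113). The second probe set of Lmna had a difference over both ages of 0.74 (standard error 0.24), against 0.78 (standard error 0.13) for the main one. It did not narrow with age, with 0.63 at 4 weeks and 0.86 at 6 weeks.

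**Figure D3:**
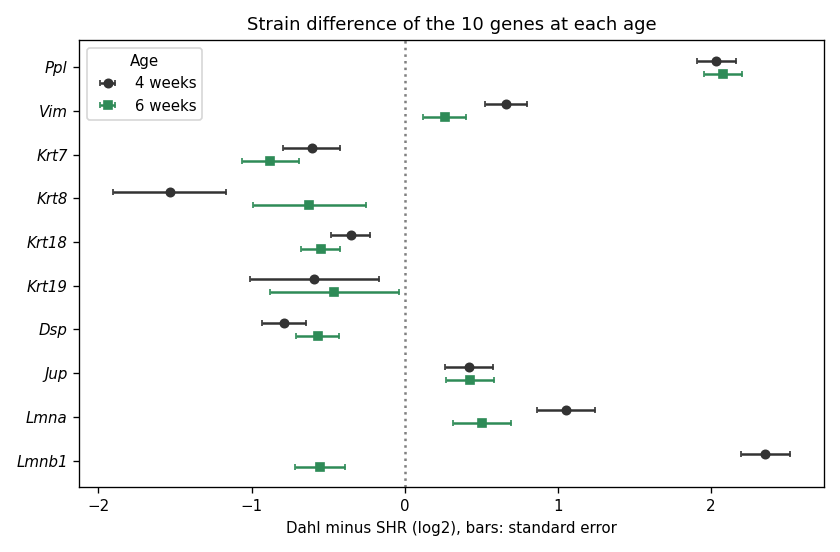
Strain difference (horizontal axis, Dahl minus SHR, log2) of the 10 genes at 4 weeks (circles) and 6 weeks (squares), with standard errors from limma. Ppl is near 2 at both ages, the 4 keratins and Dsp are below 0 at both ages, and Lmnb1 is at 2.35 at 4 weeks and -0.55 at 6 weeks.

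Lmnb1 was the member whose strain difference changed with age. It encodes lamin B1, a B-type lamin. Its values were 7.44 and 7.74 in the Dahl rats at 4 weeks, 6.63 and 6.72 at 6 weeks, 5.43 and 5.05 in the SHR rats at 4 weeks and 7.18 and 7.27 at 6 weeks. The SHR 4 weeks rats were clearly the lowest, and the order of the strains was opposite at the 2 ages. In SHR rats Lmnb1 rose by 1.99 from 4 to 6 weeks (standard error 0.16, 3.96-fold, adjusted p = 0.0156). In Dahl rats the change was -0.92 (standard error 0.16, adjusted p = 0.222). The difference between the strains was 2.35 at 4 weeks and -0.55 at 6 weeks, and its change of -2.91 (standard error 0.23) passed (adjusted p = 0.0298).

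The second probe set of Lmnb1, which was dimmer, had strain differences of 0.47 at 4 weeks and -0.38 at 6 weeks, with the same signs, and a change of -0.86 that did not pass (adjusted p = 0.175). The dimmest probe set (mean 2.37) stayed within 2.32 and 2.45. Lmnb2, the other B-type lamin, differed by 1.27 at 4 weeks and -0.49 at 6 weeks (change of -1.76, adjusted p = 0.351).

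The proliferation marker Mki67 changed in the same direction as Lmnb1, with a strain difference of 2.46 at 4 weeks and -1.12 at 6 weeks (change of -3.58, adjusted p = 0.00615). Of 13 cell cycle markers, all 13 had a lower strain difference at 6 than at 4 weeks, and 8 of these changes passed, where 0.283% of all probe sets passed as lower. Their score was 0.71 and 0.93 in the Dahl rats at 4 weeks, -0.48 and -0.50 at 6 weeks, -0.82 and -1.05 in the SHR rats at 4 weeks and 0.46 and 0.49 at 6 weeks. As for Lmnb1, the SHR 4 weeks rats were lowest and the Dahl 4 weeks rats highest. The part of proliferating cells in the values of Lmnb1 was not tested.

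With any 1 array left out, the change of Lmnb1 with age and strain stayed between -3.10 and -2.72. The call for this change was less stable. It was lost without Dahl 4 weeks replicate 1 (-3.06, adjusted p = 0.0631) or replicate 2 (-2.76, adjusted p = 0.0689), Dahl 6 weeks replicate 2 (-2.95, adjusted p = 0.0575), SHR 4 weeks replicate 2 (-2.72, adjusted p just above 0.05) and SHR 6 weeks replicate 1 (-2.95, adjusted p = 0.118) or replicate 2 (-2.86, adjusted p = 0.109). The rise in SHR rats was lost without SHR 6 weeks replicate 1 (2.03, adjusted p = 0.0914) or replicate 2 (1.94, adjusted p = 0.0851).

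**Figure D4:**
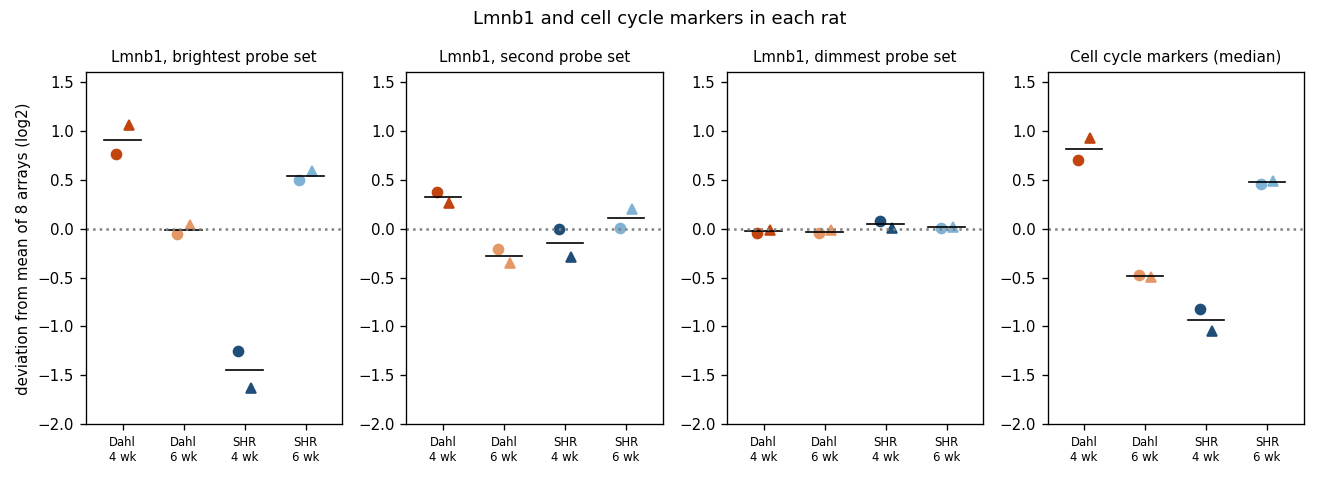
Deviation from the mean of the 8 arrays (vertical axis, log2) for the 3 probe sets of Lmnb1 and for the median of 13 cell cycle markers. Each symbol is 1 rat (replicate 1 as a circle, replicate 2 as a triangle), with a bar at each group mean. The brightest Lmnb1 probe set and the cell cycle markers are both lowest in the SHR 4 weeks rats and highest in the Dahl 4 weeks rats.

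Age alone was tested in each strain. In Dahl rats 0 of 10 passed between 4 and 6 weeks by limma (2 at an unadjusted p under 0.05), where 0.0805% of all probe sets passed. In SHR rats 1 passed, Lmnb1 (3 at an unadjusted p under 0.05), where 2.42% passed, and 1 of 10 passed the test of the change in strain difference, where 0.519% passed. The keratins had age differences of -0.55 to -0.32 in Dahl rats, all below 0, with adjusted p of 0.553 to 0.955. Without Dahl 6 weeks replicate 2 they were -0.029 for Krt8, -0.056 for Krt7, -0.062 for Krt19 and -0.30 for Krt18. Ppl, Vim and Jup had differences of 0.30, 0.099 and 0.068 in Dahl rats, and of 0.20, -0.055 and -0.079 without that array.

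Other genes of the same structures were examined in 6 lists, of which 87 of 94 genes were measured. These lists too were chosen with earlier results of these data known. The p values of their strain differences are therefore not those of an independent test. Of the 87, 6 were higher and 18 lower in Dahl rats over both ages (limma), where 10.6% of all probe sets were higher and 24.2% lower. Their median difference was -0.064, against -0.053 for all probe sets. Of the 18 lower ones, 13 had a mean signal below the median of all probe sets (4.17), as did 0 of the 6 higher ones. Among 4 equal groups of probe sets by signal, the dimmest and the next had median differences of -0.058 and -0.11, so calls of this size at low signal are uncertain. The count of 24 was 12 after quantile normalization, with 5 higher and 7 lower. With 1 array left out, it dropped to 13 for replicate 1 of the Dahl 4 weeks group or replicate 2 of the Dahl 6 weeks group. It dropped to 5 for replicate 2 of the Dahl 4 weeks group or replicate 1 of the SHR 6 weeks group. Leaving out replicate 2 gave 6 in the SHR 4 weeks group and 7 in the SHR 6 weeks group.

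Among other intermediate filament genes, Des and Nes passed as higher in Dahl rats, and Nefh, Bfsp2 and Sync as lower, of 14 measured. Over all probe sets 10.6% were higher and 24.2% lower. Des encodes desmin, the filament protein of muscle, which also marks mesangial cells and injured podocytes. It lay at 7.89 to 9.23 in the Dahl rats and 6.41 to 7.09 in the SHR rats, a difference of 1.68 (standard error 0.17, adjusted p = 0.00832). Nes encodes nestin, a partner of vimentin that podocytes contain, and lay at 10.31 to 11.09 in Dahl rats and 8.67 to 9.79 in SHR rats (1.36, standard error 0.097, adjusted p = 0.00511). Both kept their calls under every alternative fitted with limma. The neurofilament gene Nefh differed by -0.83, at 2.11 to 2.13 in the Dahl rats and 2.46 to 3.45 in the SHR rats, so it was at low signal in both strains. Bfsp2, a filament gene of the lens, differed by -0.11 at low signal. The dimmest signal group, to which Bfsp2 belongs, had a median difference of -0.058. After quantile normalization the difference of Bfsp2 was -0.031. Sync, the syncoilin gene, differed by -0.096, while its second probe set was higher by 1.12, so its direction is unsettled.

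Of 21 other keratin genes, 0 were higher and 6 lower, where 10.6% of all probe sets were higher and 24.2% lower. The lower count is near that share. All but 1 of the 21, Krt10, lay below the median signal. The 4 with the smallest p were Krt36 (-0.12), Krt12 (-0.083), Krt20 (-0.087) and Krt79 (-0.092), all between 1.90 and 2.50 on every array. The dimmest of the 4 signal groups, to which they belong, had a median difference of -0.058. After quantile normalization the differences were -0.062 for Krt36, -0.038 for Krt12, -0.020 for Krt20 and -0.028 for Krt79. Krt7, Krt8, Krt18 and Krt19, and Krt10 at 5.78 to 6.43, were thus the keratin genes examined with a signal above the median signal. Krt10, a keratin of the epidermis, had a difference of 0.056 (adjusted p = 0.795).

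Of 10 other desmosome genes, 0 were higher and 5 lower, where 10.6% of all probe sets were higher and 24.2% lower. Dsg2, the desmoglein of simple epithelia, lay at 5.14 to 5.32 in the Dahl rats and 5.60 to 6.34 in the SHR rats (-0.78, standard error 0.093, adjusted p = 0.0109), and kept its call under every alternative fitted with limma. Pkp4, an armadillo protein of cell junctions, was lower too (-0.66, standard error 0.17, adjusted p = 0.0406). Dsc2, a desmocollin, differed by -0.29, and Dsg1 and Cdsn, genes of epidermal desmosomes, by -0.12 and -0.064 at low signal. All 10 had differences below 0, as had 64.8% of all probe sets and Dsp but not Jup.

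Of 10 other plakin and cornified envelope genes, 0 were higher and 2 lower, where 10.6% of all probe sets were higher and 24.2% lower. The lower ones were the transglutaminase genes Tgm3 (limma, -0.61, adjusted p = 0.0403) and Tgm1 (-0.067, at low signal). Evpl, which encodes envoplakin, the dimer partner of periplakin in the epidermis, did not pass (-0.29, adjusted p = 0.0717). Plec, the gene of the large linker plectin, was at 0.42 (adjusted p = 0.0986). Of 16 other genes of the nuclear lamina and envelope, 0 were higher and 1 was lower, Tor1aip1, a lamina-associated membrane protein gene (-0.30, standard error 0.049, adjusted p = 0.0196). Evpl, Plec, Lmnb2 and Mki67 were named after their values were seen.

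Of 16 genes of adherens junctions and epithelial adhesion, 4 were higher and 1 lower, where 10.6% of all probe sets were higher and 24.2% lower. The higher ones were Nectin2, an adhesion receptor (0.80, standard error 0.16), Vcl, which encodes vinculin (0.54, standard error 0.12), Tjp1, the gene of the scaffold ZO-1 that is part of the slit diaphragm (0.41, standard error 0.079), and Ctnnb1, the beta-catenin gene (0.16, standard error 0.037). Their adjusted p ran from 0.0260 to 0.0376. With the second probe set, Tjp1 was at 0.0095 (limma, adjusted p = 0.781) and Ctnnb1 at 0.11 (adjusted p = 0.280), and neither passed. Nectin2 (0.51) and Vcl (0.98) still passed with theirs. Cdh1, which encodes E-cadherin, the adhesion molecule of the distal nephron, was lower (-0.86, standard error 0.23, adjusted p = 0.0444), with 6.18 to 7.94 in Dahl rats and 7.75 to 8.22 in SHR rats. Apart from Des, Nes, Dsg2 and Krt36, which lost its call under 1, every related gene named here as passing, Nefh included, lost its call under 5 or more of the alternatives fitted with limma.

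**Figure D5:**
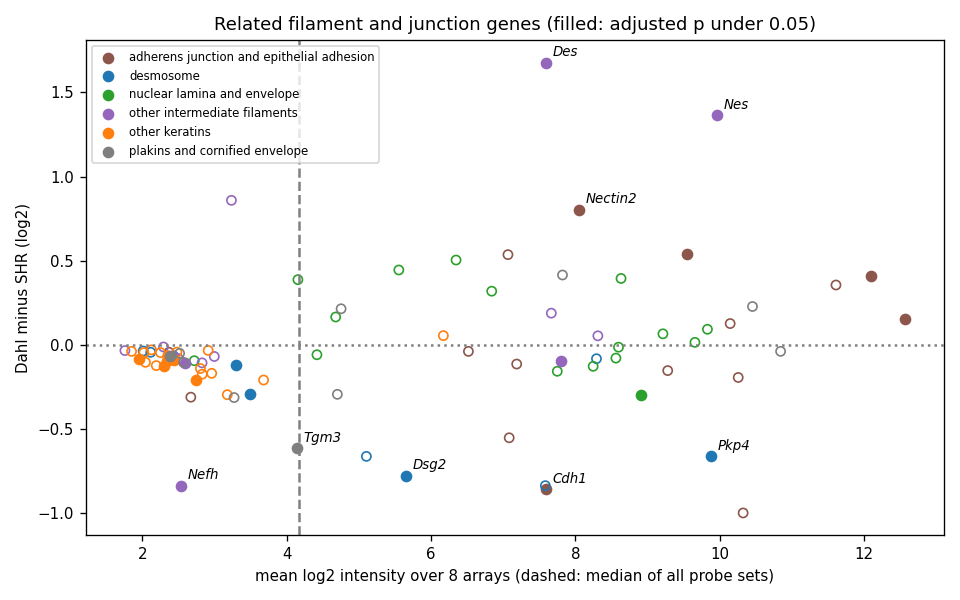
Strain difference (vertical axis, Dahl minus SHR, log2) of 87 related genes against their mean log2 intensity over the 8 arrays (horizontal axis), by list. Filled circles passed at an adjusted p under 0.05 and the dashed line is the median of all probe sets (4.17). Most of the lower calls are dim and near 0, while Des (1.68) and Nes (1.36) stand above the rest.

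The genes with the pattern most like that of a member were found by the root mean square difference between deviations from the gene's own mean over the 8 arrays. For Ppl they were Ephb1 (0.18), Tlcd5 (0.21) and Ablim3 (0.25). Ephb1 lay at 4.39 to 5.17 in the Dahl rats and at 3.10 or less in the SHR rats. For Vim they were Tmem165 (0.041), Pip4p2 (0.048) and Septin2 (0.052), and for Krt8 Pink1 (0.16), Ttpa (0.17) and Selenbp1 (0.17). The arrays share strain and age groups, so these are the nearest of many genes that differ between the strains.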

How the data were processed

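Glomerular RNA of 8 rats was labeled with biotin and hybridized to Affymetrix rat genome arrays. The authors deposited log2 intensities, 1 value per probe set and array. Per the labels, RMA and GCRMA were used, but the sources used here do not say which made these values. Array medians ran from 4.11 to 4.16, and the number of arrays limits the precision.

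After removal of 57 control probe sets from 31099, 31042 were tested. The array annotation names 1 gene for 20826 of them, several for 436 and none for 9780. Group means were estimated for the 4 groups in limma 3.58.1 under R 4.3.3 (4 residual and 0.921 prior degrees of freedom) and was tested on simulated data. The labels name the arrays of a group as biological replicates, and each array is read here as 1 rat. The members and lists were chosen with earlier results of these data known. The genes named are the 10 members, up to 4 passing genes of each list with the smallest p, those in a direction with 5 or fewer, and the 3 nearest patterns of Ppl, Vim and Krt8. Alternatives were quantile normalization, median centring, an intensity trend with robust variance, the replicate block, the brighter probe sets only, each array left out, the second probe set of a gene and the methods' t-test.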

Additional observations from a re-analysis of the deposited data

Results flagged for a closer look

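Lmnb1 was singled out because its strain difference itself differed between the ages. The difference at 6 weeks minus that at 4 weeks was -2.91 on the log2 scale (adjusted p = 0.0298 from limma). Both Dahl rats lay above both SHR rats at 4 weeks and below both at 6 weeks. This p value is not independent of the choice of genes, since the strain differences were known. In limma the call was lost with the replicate block (adjusted p = 0.0815), with the second probe set (adjusted p = 0.175) and without some of the arrays.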

How the results depend on the processing

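Of the 10 members, 5 had a strain difference above 0 in every alternative, and no member changed sign. With the second probe set, the difference of Dsp went from -0.68 to -0.018 and that of Lmnb1 from 0.90 to 0.044. Deviations from the group means of same-numbered arrays correlated at -0.23 to 0.24 over 6 pairs of groups. With 2 arrays per group, this does not settle whether the replicate numbers pair the rats. With the replicate block, 0 members passed the test of the change in strain difference (Lmnb1, adjusted p = 0.0815) and 12 related genes differed. In SHR rats, 2 members passed between the ages with the brighter probe sets only, where Krt8 joined Lmnb1. With the second probe set, 0 passed between the ages in SHR rats and 0 in the change of strain difference. Leaving out 1 array gave 0 members in Dahl rats, 0 to 2 in SHR rats and 0 to 1 for the change, with a lone rat assumed to vary like the other groups. The 24 related genes became 12 with the brighter probe sets only, 12 after quantile normalization, 42 with an intensity trend, 44 after median centring and 5 to 31 without 1 array. The methods' t-test gave 45 at the threshold of the methods and 33 after Benjamini-Hochberg adjustment. Cdsn went to 0.0034 after quantile normalization, and Sync to 1.12 with its second probe set. The cause of these changes was not tested.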
